A study of Mus musculus with 18 samples.

Results

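The 10 genes described here belong to the ovarian vasculature and were followed across 6 groups of mice. They are Pecam1, Cdh5, Kdr, Flt1, Tek, Tie1, Eng and Cd34, which are expressed by endothelial cells, and Angpt1 and Angpt2, which encode the angiopoietin ligands of the receptor Tek. They were chosen by name, with earlier results of these data known. A probe set counted for a gene if it was annotated to that symbol alone, and the brightest over all arrays stood for the gene. All 10 were found, in 17 probe sets of 45101, among 18193 genes with a single symbol, and all 10 were among the 12713 genes bright enough to be tested.

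RNA came from ovaries of female mice given as 21 days old, taken here as the age at the start of treatment, on a background given as C57B6J/S129. The mice were Pik3cd+/- or Pik3cd-/-, and no wild-type group was analysed here, so both genotypes carried at least 1 mutant allele of Pik3cd, the gene for the p110 delta subunit of phosphoinositide 3-kinase. Mice of each genotype were untreated, or were examined 44 hours after a single intraperitoneal dose of 10 IU of PMSG (pregnant mare serum gonadotropin, which acts mainly like FSH), or 72 hours from the first of 3 intraperitoneal injections of 0.03 ml of oestradiol (E2) given at 24-hour intervals. Each of the 6 groups held 3 biological repeats, measured on 18 Affymetrix arrays. The concentration of E2 and the number of animals behind each repeat are not given in the sources used here. No group received vehicle, so the effects of the injections themselves and of the elapsed hours are part of every treatment comparison.

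Blood vessels of the ovary lie in the stroma and the theca, the outer cell layer of the follicle, and stop at the basal lamina around the granulosa cells until ovulation. Follicle growth is accompanied by growth of the thecal capillaries. Endothelial cells are held together by Pecam1 and by the junction protein Cdh5 (VE-cadherin). They receive vascular endothelial growth factor through Kdr (VEGFR2), the main signalling receptor, and Flt1 (VEGFR1), which binds the ligand tightly and signals weakly. Tek (Tie2) is activated by Angpt1, a product of perivascular and other mesenchymal cells that stabilises vessels. Angpt2, made mainly by endothelial cells, acts as a context-dependent antagonist on the same receptor and loosens vessels for sprouting or regression. Tie1 is a relative of Tek without a well-defined ligand of its own and modifies Tek signalling. Eng (endoglin) is a co-receptor for ligands of the TGF-beta family. Cd34 is a sialomucin of capillary endothelium that is also carried by haematopoietic progenitors and by many stromal fibroblasts.

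Promoters are shown for Tek and Tie1, the receptor pair of the angiopoietins, for Eng, and for Cd34, a member that did change. Over the 18 arrays Eng had a Pearson correlation of 0.70 with Tek and 0.57 with Tie1. Kdr, not shown, correlated more closely with both (0.80 and 0.72). RefSeq promoter sequences were at hand for 6 of the 10 genes: Kdr, Flt1, Tek, Tie1, Eng and Cd34. Each holds 250 bases before and 50 bases after the annotated start and is printed 5′ to 3′ in the direction of the gene (build GRCm38.p6). The region of Tek is chr4:94739039-94739338 on the plus strand. That of Tie1 is chr4:118489800-118490099 on the minus strand, that of Eng is chr2:32646345-32646644 on the plus strand, and that of Cd34 is chr1:194938571-194938870 on the plus strand. Capitals mark the ETS core motif, searched as CGGAAG and AGGAAG on both strands, since ETS factors such as Erg and Fli1 regulate many endothelial genes.
Tek: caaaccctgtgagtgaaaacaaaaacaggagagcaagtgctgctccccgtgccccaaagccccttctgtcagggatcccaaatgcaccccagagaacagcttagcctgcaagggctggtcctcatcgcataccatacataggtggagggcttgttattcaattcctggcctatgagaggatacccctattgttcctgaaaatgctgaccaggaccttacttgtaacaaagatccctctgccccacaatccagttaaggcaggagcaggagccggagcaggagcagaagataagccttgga
Tie1: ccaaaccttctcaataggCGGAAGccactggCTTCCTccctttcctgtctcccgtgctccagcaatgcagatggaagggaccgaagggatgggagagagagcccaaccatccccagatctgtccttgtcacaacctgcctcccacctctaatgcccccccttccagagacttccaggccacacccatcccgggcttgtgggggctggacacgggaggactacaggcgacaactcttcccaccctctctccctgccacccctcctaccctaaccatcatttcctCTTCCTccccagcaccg
Eng: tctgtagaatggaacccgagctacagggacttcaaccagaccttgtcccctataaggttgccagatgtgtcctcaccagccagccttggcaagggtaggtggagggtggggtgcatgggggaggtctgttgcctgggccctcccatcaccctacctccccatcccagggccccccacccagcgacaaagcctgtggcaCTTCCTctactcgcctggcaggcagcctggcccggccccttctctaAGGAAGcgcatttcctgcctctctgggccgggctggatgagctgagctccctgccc
Cd34: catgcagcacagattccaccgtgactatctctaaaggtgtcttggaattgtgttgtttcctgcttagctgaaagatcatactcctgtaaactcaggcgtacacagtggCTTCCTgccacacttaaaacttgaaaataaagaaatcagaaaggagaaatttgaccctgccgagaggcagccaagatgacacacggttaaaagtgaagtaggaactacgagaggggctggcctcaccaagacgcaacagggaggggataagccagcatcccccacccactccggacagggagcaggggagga

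The ETS core was found 3 times in the Tie1 promoter, 2 times each in those of Eng and Flt1, once in that of Cd34 and not in those of Kdr and Tek. It thus stood in 4 of 6 promoters of these genes, while 46.5% of 32851 promoters of the same length held it. A GATA motif (AGATAA or TGATAA, both strands) stood in the Tek promoter and in 18.6% of all promoters. The half-site of the oestrogen response element (GGTCA, both strands) was found in the promoters of Kdr, Tek and Cd34 and in 40.5% of all. The FOXO motif GTAAACA was in none of the 6 and in 3.65% of all. These are matches of letters in short windows and describe no binding.

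The genotype labels were borne out by 2 of the 6 probe sets for Pik3cd. The first read 61.4 to 73.1 in Pik3cd+/- arrays and 19.1 to 28.8 in Pik3cd-/- arrays. The dimmer second read 18.2 to 28.2 against 11.7 to 14.7 (log2 -0.55). The other 4 did not pass the test. Among them was the brightest, with means of 3275 in Pik3cd+/- and 3372 in Pik3cd-/- arrays (log2 0.06). The median signal of an array was 48.4 to 50.9 intensity units, and its mean correlation with its group mates lay between 0.989 and 0.997. Defining transcripts of the ovary were present on every array: the oocyte factor Gdf9 at 2525 to 8190, the inhibin subunit Inha at 7929 to 13422 and the stromal proteoglycan Dcn at 3527 to 8952. Because the RNA came from whole ovaries, fewer cells of a type and less RNA per cell cannot be told apart in any of the values below. The number of arrays limits the precision. Changes are log2 differences of signal plus 8.58 intensity units ± SE (3 arrays per group). Signals carry the SD over n = 3 arrays. An adjusted p comes from limma over all genes tested, and a gene passed the test where it was under 0.05.

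No change of a junction or receptor gene passed the test, while Angpt1, Angpt2 and Cd34 each passed in at least 1 comparison. Single arrays of the junction and receptor genes differed by up to 2.2-fold (Pecam1 and Tie1), as much as those of Angpt1. By their brightest probe sets, Angpt1 and Cd34 rose after PMSG, and Angpt2 was lower and Angpt1 higher in Pik3cd-/- ovaries. The second probe sets of the angiopoietins did not pass. The genotype call of Angpt1 and the PMSG call of Cd34 were each lost when certain single arrays were left out. In the averages over groups, 2 of the 10 genes passed the test for PMSG, 0 for E2 and 2 for genotype. Of all genes tested, 24%, 4.47% and 27.7% passed in these comparisons. A share of 2 in 10 is near these backgrounds, so the count says nothing particular about these genes, and the results lie in which of them changed and in which direction.

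**Figure D1:**
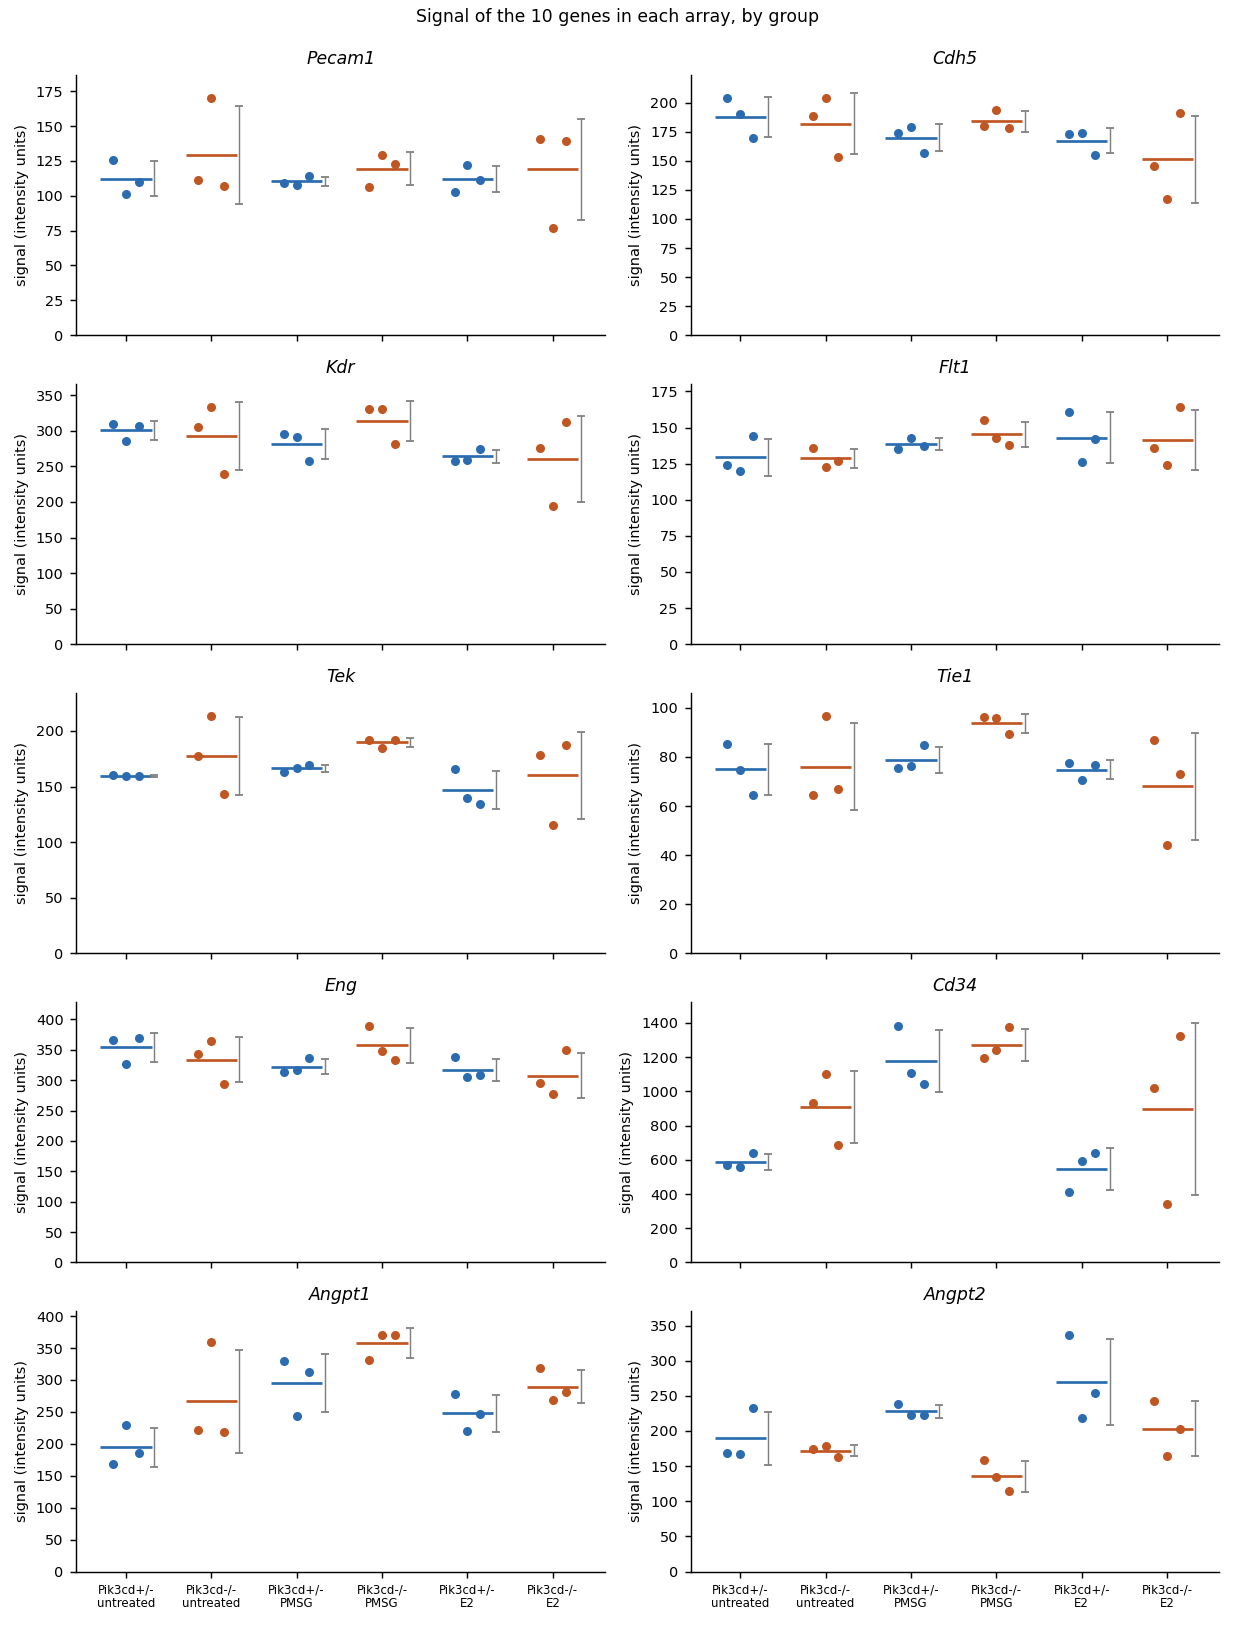
Signal in intensity units (linear axis from 0) of each of the 10 genes in each of the 18 arrays, by group; points are arrays in replicate order, horizontal bars the mean of 3 arrays and brackets the SD. The group means of Pecam1 to Eng differ little beside the spread of single arrays, Cd34 reads 1041 or more in all 6 PMSG arrays, Angpt1 is highest in Pik3cd-/- ovaries after PMSG and Angpt2 is lowest there.

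Angpt2 signals in untreated Pik3cd+/- ovaries were 169, 167 and 233, and in untreated Pik3cd-/- ovaries 174, 179 and 163. After PMSG they were 239, 222 and 223 in Pik3cd+/- ovaries and 158, 135 and 114 in Pik3cd-/- ovaries. After E2 they were 337, 218 and 254 against 242, 164 and 203. The genotypes overlapped without treatment and after E2 and were fully apart after PMSG, where the lowest Pik3cd+/- array read 222 and the highest Pik3cd-/- array 158. The difference after PMSG was -0.72 ± 0.17 (0.607-fold, 95% interval -1.08 to -0.37, adjusted p = 0.027). Angpt2 was the only one of the 10 genes to pass there, and 4.13% of all genes did. Without treatment the difference was -0.12 ± 0.17 (adjusted p = 0.727, where 2.17% of genes and no member passed). With E2 it was -0.39 ± 0.17 (adjusted p = 0.111, 16.8% of genes and no member). Averaged over the 3 states, Angpt2 fell by 0.41 ± 0.10 in the null genotype (0.752-fold, adjusted p = 0.00592). The call after PMSG was lost without any 1 of the 3 Pik3cd+/- PMSG arrays and without Pik3cd-/- PMSG replicate 2 or 3 (log2 -0.61 to -0.74, adjusted p = 0.0548 to 0.109). The average call held without any 1 of the 18 arrays (log2 -0.36 to -0.46, adjusted p = 0.00412 to 0.0146).

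No difference of Angpt2 with treatment passed the test. With PMSG it was 0.27 ± 0.17 in Pik3cd+/- ovaries (adjusted p = 0.28, where 17.7% of genes passed) and -0.33 ± 0.17 in Pik3cd-/- ovaries (adjusted p = 0.294, 2.39%). The values of Pik3cd-/- ovaries before and after PMSG did not overlap. The difference between the responses to PMSG was -0.60 ± 0.24 (95% interval -1.10 to -0.10, adjusted p = 0.452). No gene passed the tests of the interaction of PMSG or of E2 with genotype (0% each), for which limma gave 1194 and 924 genes an unadjusted p under 0.05. With E2 it was 0.48 ± 0.17 in Pik3cd+/- ovaries (adjusted p = 0.151, 1.62%) and 0.21 ± 0.17 in Pik3cd-/- ovaries (adjusted p = 0.541, 0.0551%). The average over genotypes was 0.35 ± 0.12 (95% interval 0.10 to 0.60, adjusted p = 0.0984). In Pik3cd-/- ovaries Angpt2 was lower after PMSG than after E2 in every array (-0.54 ± 0.17, adjusted p = 0.0837, 4.11%). In order of mean signal, the groups ran from Pik3cd-/- after PMSG (136 ± 22.1), Pik3cd-/- untreated (172 ± 8.24) and Pik3cd+/- untreated (190 ± 37.4) to Pik3cd-/- after E2 (203 ± 38.8), Pik3cd+/- after PMSG (228 ± 9.67) and Pik3cd+/- after E2 (270 ± 61.1). Of these neighbours, the 2 lowest groups were apart and the rest overlapped.

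Angpt1 signals in untreated ovaries were 169, 229 and 185 in Pik3cd+/- and 221, 360 and 219 in Pik3cd-/- mice. After PMSG they were 329, 243 and 312 against 331, 371 and 371. After E2 they were 278, 220 and 246 against 319, 269 and 281. All 3 Pik3cd+/- arrays after PMSG lay above all 3 without treatment, and in Pik3cd-/- ovaries the untreated array at 360 lay inside the PMSG range. In Pik3cd+/- ovaries PMSG raised Angpt1 by 0.58 ± 0.17 (1.49-fold, 95% interval 0.22 to 0.94, adjusted p = 0.0292). It was the only member to pass, where 17.7% of all genes did. In this comparison 3 of the 10 genes (Tek, Cd34 and Angpt1) did not overlap between the groups, against 40% of all genes. In Pik3cd-/- ovaries the change was 0.45 ± 0.17 (adjusted p = 0.175), and it became 0.68 (adjusted p = 0.0357) without the untreated array at 360. The average response was 0.51 ± 0.12 (1.43-fold, adjusted p = 0.00736), and the responses of the genotypes differed by -0.13 ± 0.24 (95% interval -0.64 to 0.38).

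By genotype, Angpt1 was higher in Pik3cd-/- ovaries by 0.31 ± 0.10 on average (1.24-fold, adjusted p = 0.0311). The difference was 0.41 ± 0.17 without treatment, 0.28 ± 0.17 after PMSG and 0.22 ± 0.17 after E2, and none of these passed alone (adjusted p = 0.186, 0.425 and 0.369). After PMSG the lowest Pik3cd-/- array (331) stood just above the highest Pik3cd+/- array (329). The E2 difference of Angpt1 was 0.34 ± 0.17 in Pik3cd+/- and 0.15 ± 0.17 in Pik3cd-/- ovaries (adjusted p = 0.322 and 0.679). The call for Pik3cd+/- ovaries after PMSG was lost without untreated replicate 1 or 3 or PMSG replicate 1 or 3 (adjusted p = 0.0686 to 0.13), and the average genotype call without any of 7 single arrays (0.051 to 0.0675). The average PMSG call held without any 1 of the 12 arrays concerned.

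Each angiopoietin had another, dimmer probe set, and neither bore out the calls. For Angpt1 it read 40.6 to 88.4, with average changes of 0.24 ± 0.12 for PMSG (adjusted p = 0.216) and 0.12 ± 0.10 for genotype (adjusted p = 0.458). For Angpt2 it read 15 to 27.9, below the level at which a probe set was tested, and gave -0.05 ± 0.06 for the average genotype difference (adjusted p = 0.638). The results for both ligands therefore rest on their brightest probe sets alone.

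**Figure D2:**
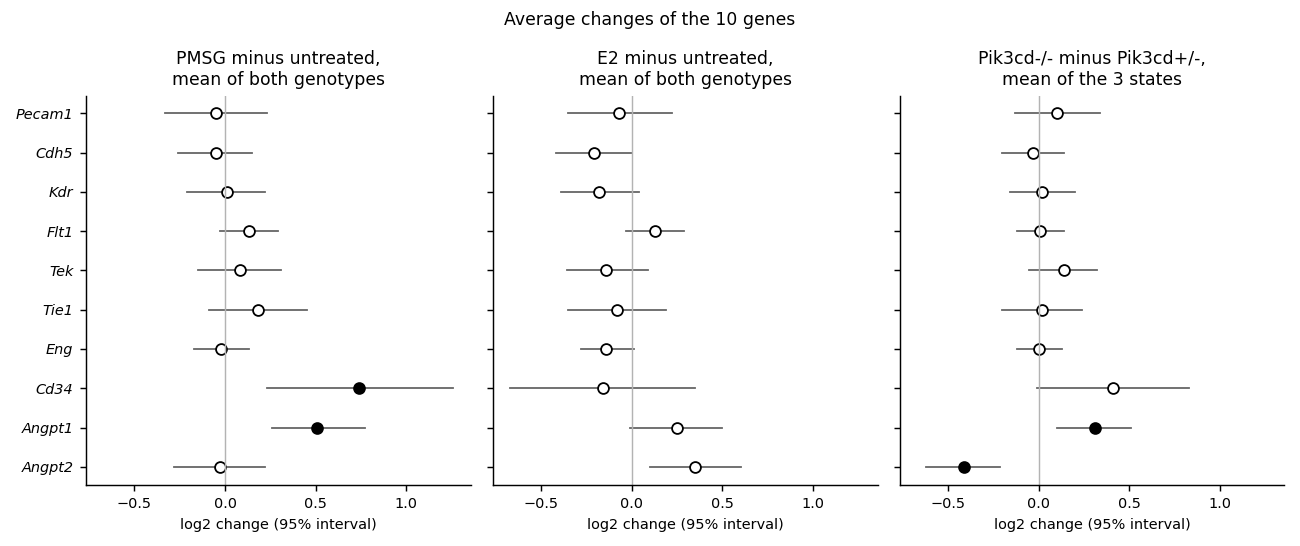
Log2 change of each of the 10 genes (points) with its 95% interval (lines) for PMSG against untreated and E2 against untreated, averaged over both genotypes, and for Pik3cd-/- against Pik3cd+/-, averaged over the 3 states; filled points passed the test. Filled points are Cd34 (0.74) and Angpt1 (0.51) for PMSG, and Angpt1 (0.31) and Angpt2 (-0.41) for genotype.

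Since both ligands bind Tek, the balance of Angpt2 to Angpt1 was followed as the difference of their log2 signals within each array. Probes differ in brightness, so only shifts of this difference between groups carry information, not its sign. It averaged -0.04 ± 0.38 in untreated Pik3cd+/- ovaries and -0.57 ± 0.35 in untreated Pik3cd-/- ovaries. With PMSG these were -0.35 ± 0.19 against -1.35 ± 0.31, and with E2 0.10 ± 0.15 against -0.51 ± 0.16. In the untreated state the genotypes overlapped, and after either treatment all 3 Pik3cd-/- arrays lay below all 3 Pik3cd+/- arrays. Over the 3 states the balance was lower in Pik3cd-/- ovaries by log2 -0.72 (0.609-fold, two-sided exact permutation within states, p = 7.5e-04, adjusted over 12 comparisons 0.009). Over both genotypes the PMSG difference was -0.54 (0.686-fold, exact p = 0.015, adjusted 0.09) and the E2 difference 0.10 (exact p = 0.535, adjusted 0.642), and neither passed after adjustment. Within 1 state, 3 against 3 arrays cannot give an exact p below 0.1, the value reached for the genotype difference after PMSG (0.499-fold) and after E2 (0.654-fold). Without Pik3cd-/- PMSG replicate 3 the PMSG shift was -0.47 (exact p = 0.05). The genotype shift stayed between -0.78 and -0.65 without any 1 array (exact p at most 0.0015).

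Each ligand was also set against the mean log2 signal of the 8 endothelial genes in the same array, a measure added after the data were seen. On this scale Angpt2 was lower in Pik3cd-/- ovaries by -0.50 (exact permutation p = 0.003, adjusted over 12 comparisons 0.036) and its E2 difference was 0.45 (exact p = 0.02, adjusted 0.12). The PMSG difference of Angpt1 was 0.39 (exact p = 0.02, adjusted 0.22) and its genotype difference 0.22 (exact p = 0.055, adjusted 0.22). Of these, only the genotype difference of Angpt2 passed after adjustment. It did not pass against the mean of the 7 genes without Cd34, where it was -0.45 (exact p = 0.00475, adjusted 0.057).

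**Figure D3:**
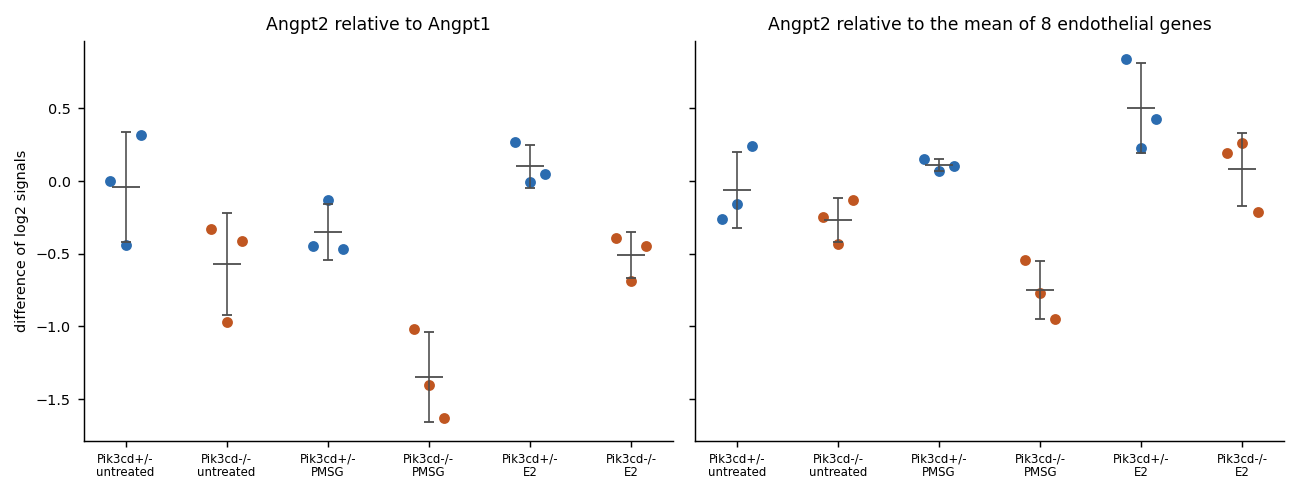
Difference of log2 signals in each array (points) by group, with the mean and SD of 3 arrays, for Angpt2 minus Angpt1 and for Angpt2 minus the mean of the 8 endothelial genes. Pik3cd-/- ovaries after PMSG are lowest in both panels, with means of -1.35 and -0.75.

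The receptors of the angiopoietins did not pass the test in any of the 14 comparisons. Tek read 159 to 160 in the 3 untreated Pik3cd+/- arrays and 143, 177 and 213 in the lowest, median and highest untreated Pik3cd-/- arrays. After PMSG it was 163, 167 and 169 against 185, 192 and 192, and after E2 134, 140 and 166 against 115, 178 and 187. The PMSG groups did not overlap, at a difference of 0.18 ± 0.15 (95% interval -0.14 to 0.50, adjusted p = 0.591). Tie1 was dimmer, at 64.7, 74.8 and 85.4 in untreated Pik3cd+/- and 64.7, 66.9 and 96.5 in untreated Pik3cd-/- ovaries. After PMSG it was 75.3, 76.2 and 84.9 against 89.2, 95.8 and 96.2, again without overlap (0.23 ± 0.18, adjusted p = 0.567). After PMSG 4 of the 10 genes did not overlap between genotypes (Tek, Tie1, Angpt1 and Angpt2), as did 27.9% of all genes. Tie1 after E2 read 70.5, 76.6 and 77.5 against 44, 73.2 and 86.8. Its largest difference was that of PMSG against E2 in Pik3cd-/- ovaries, 0.46 ± 0.18 (95% interval 0.08 to 0.84, adjusted p = 0.169).

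The VEGF receptors did not pass in any comparison either. Kdr had group means from 261 ± 60.3 (Pik3cd-/- after E2) to 314 ± 28.6 (Pik3cd-/- after PMSG), and Flt1 from 129 ± 6.9 (Pik3cd-/- untreated) to 146 ± 8.63 (Pik3cd-/- after PMSG). Average changes of Kdr were 0.01 ± 0.10 for PMSG, -0.18 ± 0.10 for E2 and 0.02 ± 0.08 for genotype (adjusted p = 0.959, 0.307 and 0.881). Those of Flt1 were 0.13 ± 0.08, 0.13 ± 0.08 and 0.01 ± 0.06 (adjusted p = 0.209, 0.319 and 0.889). Flt1 had 3 further probe sets, 1 of them as bright (114 to 150), and none passed for any of the 3 averages.

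Of the junction genes, Pecam1 had group means from 110 ± 3.01 (Pik3cd+/- after PMSG) to 129 ± 34.9 (Pik3cd-/- untreated) and Cdh5 from 151 ± 37.3 (Pik3cd-/- after E2) to 188 ± 16.9 (Pik3cd+/- untreated). Cdh5 had the largest average change with E2 among them, -0.21 ± 0.10 (95% interval -0.42 to 0.00, adjusted p = 0.208). A dimmer probe set for Cdh5, at 12.9 to 23.5 and below the level at which a probe set was tested, gave 0.02 ± 0.06 (adjusted p = 0.933). Eng lay between 308 ± 36.7 (Pik3cd-/- after E2) and 357 ± 28.9 (Pik3cd-/- after PMSG). Another probe set for Eng, at 154 to 264, gave 0.01, -0.23 and -0.08 for PMSG, E2 and genotype, and none passed (adjusted p = 0.977, 0.23 and 0.532). The change of Eng with PMSG was -0.13 in Pik3cd+/- and 0.10 in Pik3cd-/- ovaries. For Pecam1, Cdh5, Kdr, Flt1, Tek, Tie1 and Eng together, the average changes ran from -0.05 to 0.18 for PMSG, from -0.21 to 0.13 for E2 and from -0.03 to 0.14 for genotype. The outermost bounds of their 95% intervals were -0.33 and 0.45, -0.42 and 0.29, and -0.20 and 0.34, so a change in level beyond these sizes would lie outside the interval of every one of the 7 genes. When the 6 group means of each of the 10 genes were put in order, 46 of the 50 neighbouring pairs (92%) overlapped in their arrays, as did 91.2% of such pairs over all genes tested. The exceptions were Tek in Pik3cd+/- ovaries untreated and after PMSG, Tie1 and Angpt1 in the PMSG groups of both genotypes, and Angpt2 in Pik3cd-/- ovaries after PMSG and untreated.

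Cd34 stood apart from the other endothelial genes. In untreated Pik3cd+/- ovaries it read 569, 557 and 642, after PMSG 1385, 1107 and 1041, and after E2 410, 593 and 639. In Pik3cd-/- ovaries it read 931, 1104 and 686 untreated, 1198, 1241 and 1375 after PMSG, and 1019, 343 and 1326 after E2. All 6 PMSG arrays read 1041 or more, and no untreated array reached the PMSG range of its own genotype. The Pik3cd-/- E2 arrays held both the lowest value of the study and the highest outside the PMSG groups. Averaged over genotypes PMSG raised Cd34 by 0.74 ± 0.24 (1.67-fold, adjusted p = 0.0355). In Pik3cd+/- ovaries the change was 0.98 ± 0.34 (1.97-fold, 95% interval 0.26 to 1.71, adjusted p = 0.0577), and in Pik3cd-/- ovaries 0.51 ± 0.34 (adjusted p = 0.44). After PMSG it was higher than after E2 in Pik3cd+/- ovaries (1.11 ± 0.34, adjusted p = 0.0473), where 11.2% of all genes passed and no other member did. That call was lost without any 1 of the 6 arrays (adjusted p = 0.0564 to 0.173), and the average PMSG call without any of 8 single arrays (0.054 to 0.085).

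Relative to the mean of the other 7 endothelial genes, a measure also added after the data were seen, the PMSG difference of Cd34 over both genotypes was 0.70 (exact permutation p = 0.005, the smallest that 400 rearrangements can give), which did not pass after adjustment over 12 comparisons (0.06). Its average genotype difference in the signal itself was 0.41 ± 0.20 (adjusted p = 0.132), with Pik3cd-/- above Pik3cd+/- in every untreated array (0.59 ± 0.34, adjusted p = 0.346). One array bore heavily on this. Without Pik3cd-/- E2 replicate 2, at 343, the difference after E2 went from 0.52 (adjusted p = 0.284) to 1.10 (adjusted p = 0.00819), and the average from 0.41 to 0.60 (adjusted p = 0.00132).

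That array was the lowest of the 18 for 6 of the 7 genes Pecam1, Cdh5, Kdr, Flt1, Tek, Tie1 and Eng, and for Cd34. Its mean over the 7 genes was 0.45 log2 units below the mean of all arrays. Of 34 other endothelial genes tested, among them the junction protein Esam and the capillary protein Emcn, 29 were below their own mean in it, and the mean over all 34 was -0.46. Summed signals of the 9 smooth muscle markers were 10963 in it and 17433 and 17826 in the other 2 arrays of its group. Those of 11 macrophage markers were 1328 against 4003 and 6302, and those of 6 stromal markers 11078 against 19744 and 22603. The sum of 3 adipocyte markers (Adipoq, Pparg and Lep) was 351 against 1676 and 4150. Of 14 lists of markers of other cells, 12 had their lowest sum of the group in this array. The exceptions were the oocyte list, at 30932 against 29914 and 17023, and the granulosa list, at 29107 against 20536 and 30014. The part of these cell types in the low values was not tested. The opposite end was held by Pik3cd-/- untreated replicate 2, the highest array for 5 of the 7 genes (mean 0.23 above), where 12 of the 14 lists had the highest sum of their group. Without Pik3cd-/- E2 replicate 2 the average genotype difference of Tek became 0.21 (adjusted p = 0.034, against 0.14 and 0.26 with it).

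**Figure D4:**
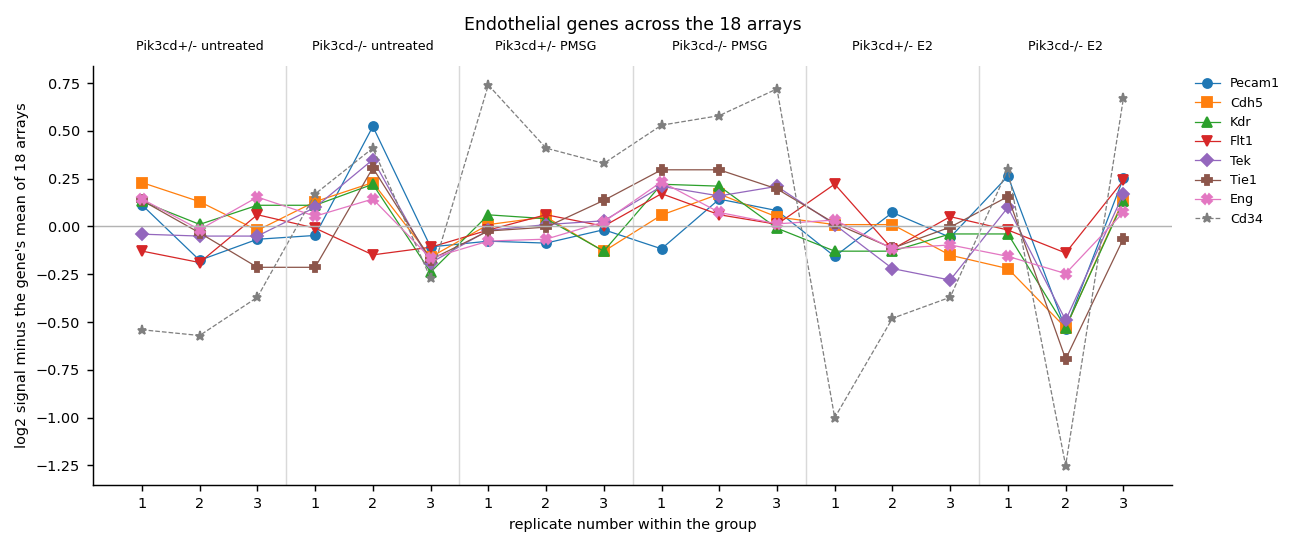
Log2 signal of the 8 endothelial genes in each array, minus the gene's mean over the 18 arrays; groups are separated by vertical lines and lines join the replicate numbers for legibility only, since replicates have no order. The 7 genes drawn with solid lines dip together in Pik3cd-/- E2 replicate 2 (mean -0.45), and Cd34 (dashed) follows the PMSG groups upward.

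Much of the variation that the endothelial genes shared lay within groups. Over the 18 arrays, which share tissue and scaling, the 21 pairs among the 7 genes had Pearson correlations from 0.03 to 0.86 with a median of 0.65. With each group's mean removed the median was 0.68, and it was 0.47 (from -0.40 to 0.72) with Pik3cd-/- E2 replicate 2 left out as well. Flt1 was the loosest: without it the 15 remaining pairs ran from 0.40 to 0.86. Angpt1 correlated with the 7 genes at a median of 0.25, both as measured and with group means removed. The median for Angpt2 was -0.14 as measured and turned to 0.47 (from 0.15 to 0.71) with group means removed, and it was 0.25 (from -0.21 to 0.63) with Pik3cd-/- E2 replicate 2 left out as well. The genes whose levels most resembled the mean of the 8 endothelial genes were the matrix protein Sparc (r = 0.94, Spearman 0.92), Esam (0.92 and 0.85), the adhesion molecule Icam1 (0.90 and 0.80), Sec14l1 (0.90 and 0.81) and the endothelial surface protein Cd93 (0.90 and 0.85). Next came Adamts12 (0.89 and 0.86), the endothelial BMP receptor Acvrl1 (0.89 and 0.78) and the collagen Col5a1 (0.88 and 0.77). With group means removed their correlations were 0.87 to 0.94.

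The genes most like Angpt1 over the 18 arrays were N4bp3 (r = 0.82), Zbtb42, the fractalkine receptor Cx3cr1, Gpr146 and the Notch ligand Dll1 (0.81 each). With group means removed these fell to between 0.48 (Dll1) and 0.80 (Zbtb42). Most like Angpt2 were Bmp2, a ligand of the TGF-beta family (0.80), the stress-response gene Gadd45a (0.79), Cop1 (0.78), Ntn4, a netrin of vascular basement membranes (0.78), and Pik3ip1, an inhibitor of phosphoinositide 3-kinase (0.77). With group means removed these were 0.14 to 0.41, so the likeness to Angpt2 lay mainly between the groups.

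Among other genes of the pathway, 80 distinct genes of 6 lists were tested: VEGF ligands and receptors, the angiopoietin and Tie pathway, other endothelial genes, tip cell and Notch genes, pericyte genes and angiogenesis inhibitors. With PMSG, averaged over genotypes, 10 were higher and 10 lower (25%, against 24% of all genes), and the median change was 0.03. By genotype 9 were higher and 7 lower in Pik3cd-/- ovaries (20%, against 27.7%), with a median of 0.01. With E2 2 were higher and 1 lower (3.75%, against 4.47%), with a median of -0.12. The median of all genes tested was -0.03, -0.03 and -0.02. Over these 80 genes the shares called were near those of all genes in each case. Single lists differed, as the counts below show. With PMSG most of the VEGF genes and of the angiogenesis inhibitors were called. Of the other endothelial genes, smaller shares than of all genes were called with PMSG and by genotype.

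Of 8 VEGF ligands and receptors, 4 rose and 1 fell with PMSG. The lymphatic receptor Flt4 (VEGFR3) went from 232 ± 20.5 to 329 ± 20.9 in Pik3cd+/- and from 236 ± 18.4 to 342 ± 39.2 in Pik3cd-/- ovaries, an average rise of 0.50 ± 0.09 (adjusted p = 0.00121). Its ligand Vegfc rose by 0.51 ± 0.10 (adjusted p = 0.00337). In Pik3cd+/- ovaries Vegfc went from 200 ± 28.8 to 404 ± 60.7, and in Pik3cd-/- ovaries it read 292 ± 40.8 and 299 ± 38. The co-receptor Nrp2 fell by 0.35 ± 0.09 (adjusted p = 0.0122). By genotype, averaged over the 3 states, 1 was higher and 1 lower: Vegfc was higher in Pik3cd-/- ovaries (0.24 ± 0.08, adjusted p = 0.0476) and Vegfd lower (-0.43 ± 0.15, adjusted p = 0.0398). The average of Vegfc joins opposite signs. Its mean was higher in Pik3cd-/- ovaries untreated and after E2 (302 ± 28.7 against 197 ± 30.7) and lower there after PMSG. In the angiopoietin and Tie list of 6, Angpt4, a further Tek ligand, rose with PMSG by 0.84 ± 0.16 (adjusted p = 0.00265), from 108 ± 29.7 to 279 ± 71.1 in Pik3cd-/- and from 178 ± 17 to 243 ± 93.5 in Pik3cd+/- ovaries. Foxo1, a transcription factor inhibited downstream of Tek and phosphoinositide 3-kinase and abundant in granulosa cells, was lower in Pik3cd-/- ovaries by -0.56 ± 0.09 (adjusted p = 4.6e-04). The Tek phosphatase Ptprb did not pass in any of the 3 averages (-0.13, -0.20 and 0.12).

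Of 34 other endothelial genes, 1 rose and 2 fell with PMSG, 1 rose with E2, and 4 were higher and 1 lower by genotype. Fgd5, an exchange factor of Cdc42 in endothelial cells, had the largest genotype difference (-0.99 ± 0.15, adjusted p = 3.3e-04). It read 238 ± 13.8, 423 ± 106 and 631 ± 56.4 in untreated, PMSG and E2 groups of Pik3cd+/- ovaries and 207 ± 22.5, 201 ± 21.4 and 194 ± 94.3 in Pik3cd-/- ovaries. The gap junction gene Gja4, also expressed by oocytes, was higher in Pik3cd-/- ovaries by 0.67 ± 0.11 (adjusted p = 7.7e-04) and fell with PMSG by 0.62 ± 0.14 (adjusted p = 0.00593). The endothelial transcription factor Sox18 fell with PMSG by 0.29 ± 0.06 (adjusted p = 0.00356). Fli1, an ETS factor, rose with E2 by 0.73 ± 0.19 (adjusted p = 0.0426). On average Mmrn1 rose with PMSG by 0.36 ± 0.10 and was higher in Pik3cd-/- ovaries by 0.39 ± 0.08 (adjusted p = 0.0184 and 0.00325). In untreated, PMSG and E2 groups it read 258 ± 20.2, 391 ± 88.4 and 247 ± 30.6 in Pik3cd+/- ovaries. In Pik3cd-/- ovaries it read 338 ± 32.6, 377 ± 30.9 and 440 ± 41, so its mean was not higher there after PMSG.

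Of 14 tip cell and Notch genes, 2 rose and 2 fell with PMSG, 1 rose with E2, and 1 was higher and 3 were lower by genotype. The chemokine receptor Cxcr4 rose with PMSG by 0.81 ± 0.14 (adjusted p = 0.00153), and the Notch ligand Jag1 and the target Hey1 fell by 0.46 ± 0.09 and 0.43 ± 0.09 (adjusted p = 0.00247 and 0.00295). Nrarp, a Notch target that dampens the pathway, rose by 0.33 ± 0.07 (adjusted p = 0.00332). Pdgfb, with which endothelial cells recruit pericytes, rose with E2 by 0.71 ± 0.12 (adjusted p = 0.00752) and was lower in Pik3cd-/- ovaries by -0.60 ± 0.10 (adjusted p = 7.4e-04). Jag1 was higher in Pik3cd-/- ovaries by 0.36 ± 0.07 (adjusted p = 0.00216) and the netrin receptor Unc5b lower by -0.24 ± 0.06 (adjusted p = 0.00635). Of 11 pericyte genes, 1 rose and 1 fell with PMSG and 1 was higher by genotype: the channel subunit Abcc9 rose with PMSG by 0.51 ± 0.14 (adjusted p = 0.0179), the receptor Pdgfrb fell by 0.37 ± 0.12 (adjusted p = 0.0368), and the peptidase Anpep was higher in Pik3cd-/- ovaries by 0.47 ± 0.10 (adjusted p = 0.00265).

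Of 7 tested angiogenesis inhibitors, 1 rose and 4 fell with PMSG, and 2 were higher and 1 lower by genotype. Adamts1, a protease induced in granulosa cells before ovulation, rose by 1.07 ± 0.13 (adjusted p = 1.0e-04), and Serpinf1 (PEDF) and the thrombospondin Thbs2 fell by 0.52 ± 0.09 and 0.42 ± 0.12 (adjusted p = 0.00166 and 0.0202). Col18a1, whose protein yields endostatin, was higher in Pik3cd-/- ovaries in each state: 1383 ± 189 against 822 ± 73.5 untreated, 1130 ± 101 against 663 ± 59.6 with PMSG, and 1001 ± 161 against 576 ± 37.7 with E2. The difference over the 3 states was 0.76 ± 0.07 (adjusted p = 9.7e-06), and none of the 3 pairs of groups overlapped. Timp3 was also higher (0.36 ± 0.07, adjusted p = 0.00175), and Thbs1 was lower (-0.35 ± 0.07, adjusted p = 0.00311). E2 lowered Col18a1 on average (-0.49 ± 0.09, adjusted p = 0.00752).

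**Figure D5:**
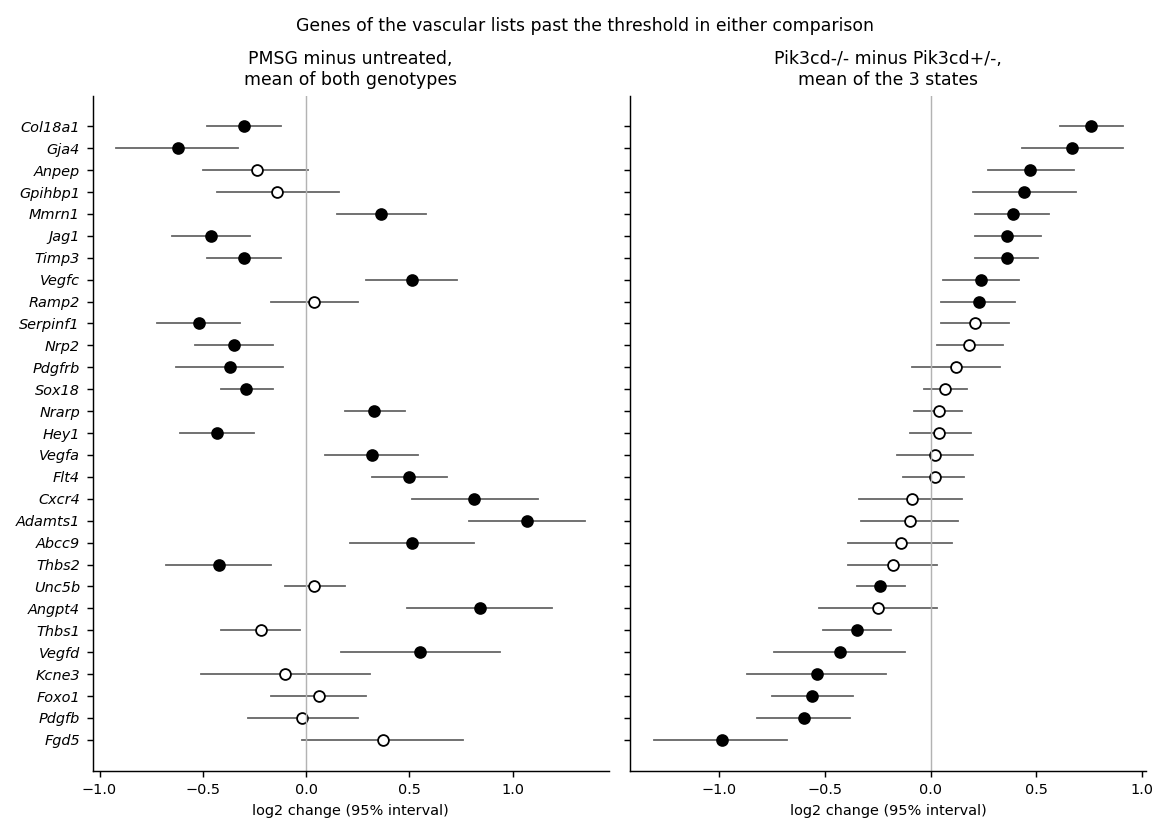
Log2 change and 95% interval of genes of the 6 vascular lists that passed the test for PMSG (mean of both genotypes) or for genotype (mean of the 3 states); filled points passed in that panel and genes are ordered by the genotype difference. Adamts1 (1.07) has the largest rise with PMSG, and Col18a1 (0.76) and Fgd5 (-0.99) mark the ends of the genotype order.

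Markers of other ovarian cells moved in the same comparisons, where 24% (average PMSG) and 27.7% (average genotype) of all genes tested passed. With PMSG, where Angpt1 and Cd34 rose, 9 of 10 oocyte genes fell. Of the 6 theca entries, Cyp17a1, Cyp11a1, Nr5a1, Star and Hsd3b1 rose. The remaining entry, Insl3, was matched only by its synonym Rlf, may not measure Insl3, and did not pass. For theca the summed signal was 12115 to 14124 in untreated Pik3cd+/- arrays and 20674 to 29009 after PMSG. In Pik3cd-/- arrays it was 10019 to 14733 and 22869 to 27249. Hsd3b1 alone had a mean of 10185 in untreated Pik3cd+/- arrays, most of their theca sum. Of 10 macrophage genes tested 4 rose with PMSG, and the summed signal of the list was 1855 to 2081 and 2557 to 5119 in Pik3cd+/- arrays and 2253 to 4631 and 3175 to 4071 in Pik3cd-/- arrays. By genotype, where Angpt2 was lower and Angpt1 higher, all 10 oocyte genes were higher in Pik3cd-/- ovaries (median 1.03). Their summed signal was 18121 to 19728 against 26919 to 33364 untreated, 9464 to 10823 against 21020 to 23843 after PMSG, and 11857 to 13500 against 17023 to 30932 after E2. Of 6 stromal genes 3 were higher in Pik3cd-/- ovaries, and of 8 granulosa genes 1 was higher and 3 were lower. Stromal sums were 15357 to 16906 against 18823 to 25042 untreated, 14040 to 20790 against 19587 to 22726 after PMSG and 12736 to 14931 against 11078 to 22603 after E2. Granulosa sums were 28474 to 30021 against 17682 to 27657, 27535 to 45320 against 31911 to 35219, and 28044 to 29775 against 20536 to 30014. No marker of these lists had a mean signal of 0. Adipocyte markers ran beside Cd34 from array to array: in 5 of the 6 groups the array with the highest adipocyte sum also had the highest Cd34 signal. The lymphocyte list matched in 5 groups as well, and the other lists of other cells in 1 to 4. In Pik3cd-/- ovaries, in replicate order, the adipocyte sums were 2072, 3331 and 1910 untreated, 1591, 1504 and 1945 after PMSG, and 1676, 351 and 4150 after E2. In Pik3cd+/- ovaries they were 1021, 1018 and 2123, then 1910, 1272 and 1770, and then 1049, 2058 and 1204. Of the 2 adipocyte genes tested, Pparg, which granulosa cells also express, rose with PMSG (0.70 ± 0.18, adjusted p = 0.0126) and was lower in Pik3cd-/- ovaries (-0.64 ± 0.15, adjusted p = 0.00528), and Adipoq did not pass. The summed signal of 5 oviduct markers was 4552 in Pik3cd+/- PMSG replicate 1, the array with the highest Cd34, against 454 and 370 in its group mates. Without that array the average change of Cd34 with PMSG was 0.68 (adjusted p = 0.0776). The next highest oviduct sum was 2194, in Pik3cd+/- untreated replicate 2, against 274 and 505 in its group mates. Cd34 was the lowest of its group in that untreated array (557 against 569 and 642). The part of these cell types in the changes of Angpt1, Angpt2 and Cd34 was not tested.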

How the data were processed

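Signals are linear intensity values, 1 per probe set and array, as deposited by the authors, whose submitters' processing notes name MAS5 without a version. The scaling and any further normalization are not given in the sources used here, and no normalization was added. Probe sets were named through GEO's platform annotation: of 45101, 64 were controls, 9160 had no symbol, 932 had several and 34945 had 1. The brightest stood for its gene. Signals plus 8.58 (their 10th percentile) were taken to log2, and a gene was tested if a group mean exceeded 5.87, the median.

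A model of 6 group means was fitted in R 4.3.3 by limma 3.58.1 (eBayes with trend; 12 residual and 3.66 prior degrees of freedom). All 18 arrays entered the fit. Tests were two-sided and adjusted by Benjamini and Hochberg over 12713 genes in each of 14 comparisons. Differences between genes within an array were tested by exact permutation of arrays within states or genotypes. The labels call the repeats biological and do not say whether replicate numbers pair the arrays. The fit was tested on simulated data.

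The members, lists and comparisons were chosen with earlier results of these data known. Named genes are all 10 members, up to 3 called genes per list and comparison with the smallest adjusted p, and the nearest genes by Pearson r. Ptprb, Nrarp, the Vegfc, Fgd5, Mmrn1 and Col18a1 levels by group, and Esam and Emcn as examples were chosen after their values were seen. List genes were matched by symbol, or by a synonym where the symbol was absent. Promoters are from RefSeq (GRCm38.p6). Alternatives were pseudocounts of 1 and 64, a filter at the 70th percentile or none, quantile normalization, no trend, only the groups compared, the replicate number as a block, the probe set of highest variance, other probe sets, and each array left out in turn.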

Additional observations from a re-analysis of the deposited data

Results flagged for a closer look

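The PMSG differences of Angpt2 and Eng had opposite signs in the genotypes. Every Pik3cd+/- array after PMSG lay above the untreated mean of Angpt2 and every Pik3cd-/- array below it, and the difference of the responses was -0.60 ± 0.24 (95% interval -1.10 to -0.10, limma adjusted p = 0.452). For Eng every Pik3cd+/- array after PMSG lay below the untreated mean of its genotype. The Pik3cd-/- arrays after PMSG read 390, 348 and 334 against an untreated mean of 334, so 1 of them did not differ from it. The responses of Eng differed by 0.23 (limma adjusted p = 0.62). Neither difference passed the test over all genes.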

How the results depend on the processing

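No called value changed sign under any alternative. With only the groups of the comparison in the fit, 2 members passed for PMSG in Pik3cd+/- ovaries instead of 1, Cd34 being the other (adjusted p = 0.00191). For PMSG against E2 in Pik3cd+/- ovaries the count moved in 10 alternatives, left-out arrays included. Among others, it went from 1 to 0 with no filter, with the probe set of highest variance and with the replicate number as a block. The replicate block changed no other count of members, and of 45 same-numbered pairs of arrays 11 correlated above 0.1 (from -0.34 to 0.34), so the numbers were not taken to pair arrays. With single arrays left out, the number of members called ran from 0 to 1 for PMSG in either genotype and for genotype after PMSG and after E2, from 1 to 2 for the average of PMSG, from 1 to 4 for the average of genotype, and from 0 to 2 for PMSG against E2 in Pik3cd-/- ovaries. It was 0 throughout for PMSG against E2 in Pik3cd+/- ovaries, both E2 effects, the untreated genotype difference, both interactions and the average of E2. Without Pik3cd-/- E2 replicate 3, Cdh5 (0.47, adjusted p = 0.0278) and Cd34 (1.09, adjusted p = 0.0441) passed for PMSG against E2 in Pik3cd-/- ovaries. The Angpt2 to Angpt1 balance ran from -0.65 to -0.45 for PMSG (-0.47 with exact p = 0.05 without Pik3cd-/- PMSG replicate 3), from -0.78 to -0.65 for genotype and from 0 to 0.19 for E2. The share of all genes called moved more. It fell to 0.763% (from 16.8%) for genotype after E2 with only those groups in the fit, where it rose to 6.01% (from 1.62%) for E2 in Pik3cd+/- ovaries and to 7.78% (from 4.13%) for genotype after PMSG. With single arrays left out it fell to 6.84% for PMSG in Pik3cd+/- ovaries, to 0.676% for PMSG in Pik3cd-/- ovaries, to 0.645% for genotype after PMSG and to 0.00787% for genotype untreated. Over all alternatives it was 18.6% to 31.5% for the average of genotype and 16.2% to 27.2% for that of PMSG. The cause of these moves was not tested. Tie1 and the second probe set of Angpt1 were dim, at means of 77.7 and 58.3, but above the level at which a probe set was tested. The second probe set of Angpt2, at a mean of 21, was below it, which limits it as a check.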

Other observations

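Genes of the hypoxia response, which include inducers of vessel growth and enzymes of glycolysis, changed in both directions. With PMSG, averaged over genotypes, 3 of 11 tested were higher and 2 lower, against 24% of all genes. Ldha (lactate dehydrogenase) and Pgk1 (phosphoglycerate kinase) rose by 0.35 ± 0.07 and 0.33 ± 0.07 (limma, adjusted p = 0.00388 and 0.00482), and the secreted hormone Stc1 fell by 1.66 ± 0.23 (adjusted p = 3.1e-04), from a mean signal of 334 to 95.3. By genotype 2 were higher and 2 lower. Ldha was lower in Pik3cd-/- ovaries (-0.41 ± 0.06, adjusted p = 2.6e-04), Car9, a carbonic anhydrase, was higher (0.47 ± 0.09, adjusted p = 0.00224), and Pgk1 was lower (-0.22 ± 0.06, adjusted p = 0.0113). Averaged over genotypes, none of the 11 passed with E2. In Pik3cd+/- ovaries alone Epas1, a hypoxia-inducible transcription factor abundant in endothelium, rose with E2 by 0.45 ± 0.10 (adjusted p = 0.0376).

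In the averages, of 4 tested lymphatic genes Flt4 rose with PMSG and Reln rose with E2 by 1.02 ± 0.17 (adjusted p = 0.00655). Lyve1, which macrophages also express, was higher in Pik3cd-/- ovaries by 0.38 ± 0.14 (adjusted p = 0.0462). Within Pik3cd+/- ovaries PMSG lowered Pdpn (-0.81 ± 0.24, adjusted p = 0.0297). There it raised Flt4 and Lyve1 (0.49 ± 0.12 and 0.75 ± 0.23, adjusted p = 0.0143 and 0.0378). The defining lymphatic factor Prox1, at a mean signal of 29.4, was too dim to be tested.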
